A study of Mus musculus with 16 samples.

Results

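The collagen genes encode the alpha chains that wind into the triple helices of the extracellular matrix, and their RNA was followed here through the libraries of a transfection experiment in cultured mouse juxtaglomerular (JG) cells. Members were the protein-coding genes with a symbol made of Col, a number, the letter a and a number. This rule was met by 44 of the 46078 genes counted, 21775 of which were protein coding. The study asked how microRNA-106b (miR-106b) changes the mRNAs of JG cells and their binding to Argonaute2 (Ago2), the protein that holds microRNAs on their targets.

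All cultures were of JG cells engineered to carry YFP under the renin promoter, and all were collected 48 h after transfection. The polyA control group (4 libraries) held polyadenylated RNA of cells given a precursor microRNA that mammals lack, and the polyA miR-106b group (4 libraries) that of cells given miR-106b. The 2 Ago2-IP groups, also named control and miR-106b (4 libraries each), held RNA pulled down with Ago2 by immunoprecipitation, from separate cultures that were transfected in parallel, trypsinized and lysed. PolyA RNA came from cytoplasm and nucleus together. The RNA kinds thus differed in culture, harvest and preparation at once, and the parts of these cannot be told apart. Total counts ran from 5692958 to 9459585 in the polyA control libraries and from 2815272 to 4554848 in their miR-106b counterparts. The Ago2-IP libraries held 3501909 to 4616424 counts with control and 2579086 to 3450269 with miR-106b. Levels are CPM, the counts of a gene relative to the library total after TMM scaling among libraries of the same RNA kind, with mean ± SD over n = 4 libraries per group. Sums over a marker list, and the limit that a count of 0 allows, are CPM of the library total alone, without TMM scaling. Fold changes are log2 values ± SE from edgeR, and a gene was called at an adjusted p under 0.05 over all genes tested.

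The labelled cell type was checked against its markers. Renin (Ren1) had 0 counts in all 16 libraries, and Akr1b7, the other JG marker, had 6 counts in all, so that neither was tested. A count of 0 allowed at most 0.317 to 1.16 CPM of renin, depending on the library. Transcripts of cardiac muscle were abundant in every library, with Myh6, the alpha myosin heavy chain of heart muscle, as the most abundant gene of its list. The collagen levels are therefore given for these cultures and not for JG cells as a type.

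Collagen chains are grouped by the structures that they build. Fibrillar collagens form the banded fibrils of connective tissue, with types I and III as the bulk and type V at the core of the fibril, and FACIT collagens decorate those fibrils. Type IV collagen is the network of basement membranes, which multiplexins (types XV and XVIII) also occupy, and type VI forms beaded filaments around cells. In the kidney, mesangial, mural and interstitial cells make type I, III, IV and VI chains, and the glomerular filter uses type IV chains of its own.

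Of the 44 genes, 11 were fibrillar, 9 FACIT, 6 type IV, 6 type VI, 4 transmembrane, 3 of types VIII and X, 2 multiplexins, 1 the anchoring fibril collagen Col7a1 and 2 (Col26a1 and Col28a1) of other kinds. The filter on low counts kept 36 of them. The other 8 were Col2a1, Col10a1, Col17a1, Col25a1, Col6a4, Col6a5, Col9a1 and Col19a1, each with at most 11 counts in any library, and they entered no test. A mean of at least 5 CPM in a group was reached by 28 members.

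Collagens took 2.46% ± 0.117 of all counts in polyA control libraries and 3.13% ± 0.655 in polyA miR-106b libraries. Library by library, the share was 2.43, 2.38, 2.40 and 2.63% in the controls and 4.06, 2.74, 2.62 and 3.08% with miR-106b. The first miR-106b library stood highest, and the lowest miR-106b library lay below the highest control. Ago2-IP shares were 2.71% ± 0.0322 with control and 2.67% ± 0.0381 with miR-106b, a narrower spread than in polyA RNA.

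The share of each class in the collagen counts was taken in every library. Fibrillar genes held 59.5% ± 1.12 of the collagen counts in polyA control libraries and 70.6% ± 4.20 with miR-106b. In Ago2-IP RNA they held 76.3% ± 0.286 with control and 76.0% ± 0.284 with miR-106b. Type VI genes held 25.4% ± 1.67, 13.2% ± 3.90, 5.01% ± 0.233 and 5.21% ± 0.312 in the same order. The type IV share was 9.10% ± 0.748, 12.2% ± 2.40, 15.0% ± 0.0655 and 15.1% ± 0.0820. The fibrillar and type IV shares were thus higher, and the type VI share lower, in both Ago2-IP groups than in polyA control RNA, by more than the spread between libraries. These shares were not tested.

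Levels of different genes were compared per kilobase of exon. In polyA control libraries Col1a1 led at 1134 ± 75.6 CPM per kb, ahead of Col6a1 at 694 ± 23.9, Col3a1 at 356 ± 28.8 and Col6a2 at 289.7 ± 10.6. Col5a1 followed at 174 ± 7.49, then Col4a2 at 146 ± 21.3 and Col4a1 at 135 ± 19.0, with Col4a1 below Col4a2 in each control library. In Ago2-IP control libraries Col1a1 (1303 ± 9.06) and Col3a1 (705 ± 9.02) led, and Col6a1 stood in position 7 at 111 ± 10.1. Col1a2, whose chain pairs with that of Col1a1 in type I collagen, was in position 10 in polyA control RNA (61.7 ± 9.39) and position 5 in Ago2-IP control RNA (247 ± 10.7).

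Marker lists of other cell types moved between the same groups as many collagens did. The 25 cardiac muscle genes summed to 31995, 24964, 26953 and 35496 CPM (library total alone, as for each list sum) in the polyA control libraries, and to 48729, 84319, 60938 and 81671 CPM after miR-106b. Every miR-106b library lay above every control library, and the Ago2-IP libraries, at 109584 to 120347 CPM, above both. Of the 24 cardiac genes tested, 24 rose with miR-106b in polyA RNA, by 1.15 to 1.42 on the log2 scale, where 19.0% of all genes tested rose and 21.5% fell, and all 4 defining markers (Myh6, Tnnt2, Tnni3, Actc1) were detected.

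Fibroblast markers summed to 265, 204, 225 and 307 CPM in polyA control libraries and 387, 551, 450.0 and 537 CPM after miR-106b, with Dcn on top and 9 of 10 genes higher. The endothelial list (top gene Eng, 10 of 10 higher) stood at 583, 455, 501 and 666 CPM against 861, 1568, 1137 and 1487 CPM. Macrophage and leukocyte genes (top gene C1qb, 10 of 10 higher) gave 394, 296, 321 and 414 CPM against 575, 984, 741 and 938 CPM. In each of these lists every polyA miR-106b library lay above every control library. Mural and smooth muscle genes, led by Des, summed to 3066, 2891, 2835 and 3118 CPM and 3865, 4712, 3893 and 4819 CPM, with 6 of 10 higher and 1 lower. No defining marker of these 4 lists was at 0. Ago2-IP sums were 708 to 817 CPM for fibroblast, 1958 to 2201 CPM for endothelial, 1305 to 1430.2 CPM for macrophage and leukocyte and 5311 to 5894 CPM for mural genes.

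The kidney epithelium list, of which 2 of 10 genes were tested, gave 141, 155, 156 and 278 CPM in polyA control libraries, 170.4, 119, 190.4 and 212 CPM after miR-106b and 1.43 to 17.1 CPM in Ago2-IP libraries. Cdh16 was its most abundant gene, the defining marker Lrp2 fell with miR-106b in polyA RNA (-1.07 ± 0.39), and the defining marker Umod had 4 counts over all libraries. The other gene tested was not called (0.019), and the groups overlapped for both genes. The part of these cell types in the collagen results was not tested. In bulk libraries, fewer cells of a type and less RNA per cell cannot be told apart.

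With miR-106b, the polyA RNA of fibrillar and basement membrane collagens rose more often than it fell. Of the 36 collagens tested, 15 were called higher, where 19.0% of all genes tested were, and 4 lower, where 21.5% of all were. Their median log2 fold change was 0.52, beside -0.054 over all 14897 genes. All miR-106b libraries lay above all controls for 13 collagens (16.7% of all genes) and below them for 4 (21.6% of all genes). The count of lower collagens was 1, 0 and 1 when polyA control replicate 1, 2 or 3 was left out, and 2 without polyA miR-106b replicate 2. In the same fits the lower calls over all genes also dropped, from 3198 to 1826, 1636, 1705 and 2647. The all-gene median moved there to 0.028, 0.031, 0.033 and -0.030. The share of higher genes among all calls was 60.0%, 60.3%, 60.2% and 47.5%, so that the calls over all genes shifted along with the collagens. With all 16 libraries scaled and fitted together the all-gene median moved to 0.071, the share of higher genes among all calls went from 47.0% to 61.4%, and 16 collagens were higher and 4 lower.

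Type I and III fibrillar genes were among those that rose. Col1a1, the most abundant collagen, was at 7460.2, 7038, 7136 and 8136 CPM in the control libraries and at 15367, 8919, 7962 and 11575 CPM with miR-106b. The first miR-106b library stood far above the others, and the third lay below the highest control, so that the groups overlapped. Its fold change was 0.56 ± 0.20 (edgeR adjusted p = 0.0437), the smallest of the fibrillar calls. This adjusted p rose to 0.0644, 0.0754, 0.0734 and 0.0636 without replicates 1, 2, 3 and 4 of polyA control, and 0.0751 without replicate 4 of polyA miR-106b.

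Col1a2, the partner chain of type I collagen, was at 825, 655, 686 and 903 CPM in the controls and 1268, 2228, 1504 and 2205 CPM with miR-106b. All miR-106b libraries lay above all controls, and here the first of them was the lowest. The fold change was 1.23 ± 0.19 (edgeR adjusted p = 0.000685). Col3a1, the chain of type III fibrils, was at 3607, 3258, 3279 and 3847 CPM in the controls and 10796, 5832, 4490.0 and 6894 CPM with miR-106b. Its groups did not overlap either, with the first miR-106b library again on top, and it rose by 1.0 ± 0.23 (edgeR adjusted p = 0.0044).

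**Figure D1:**
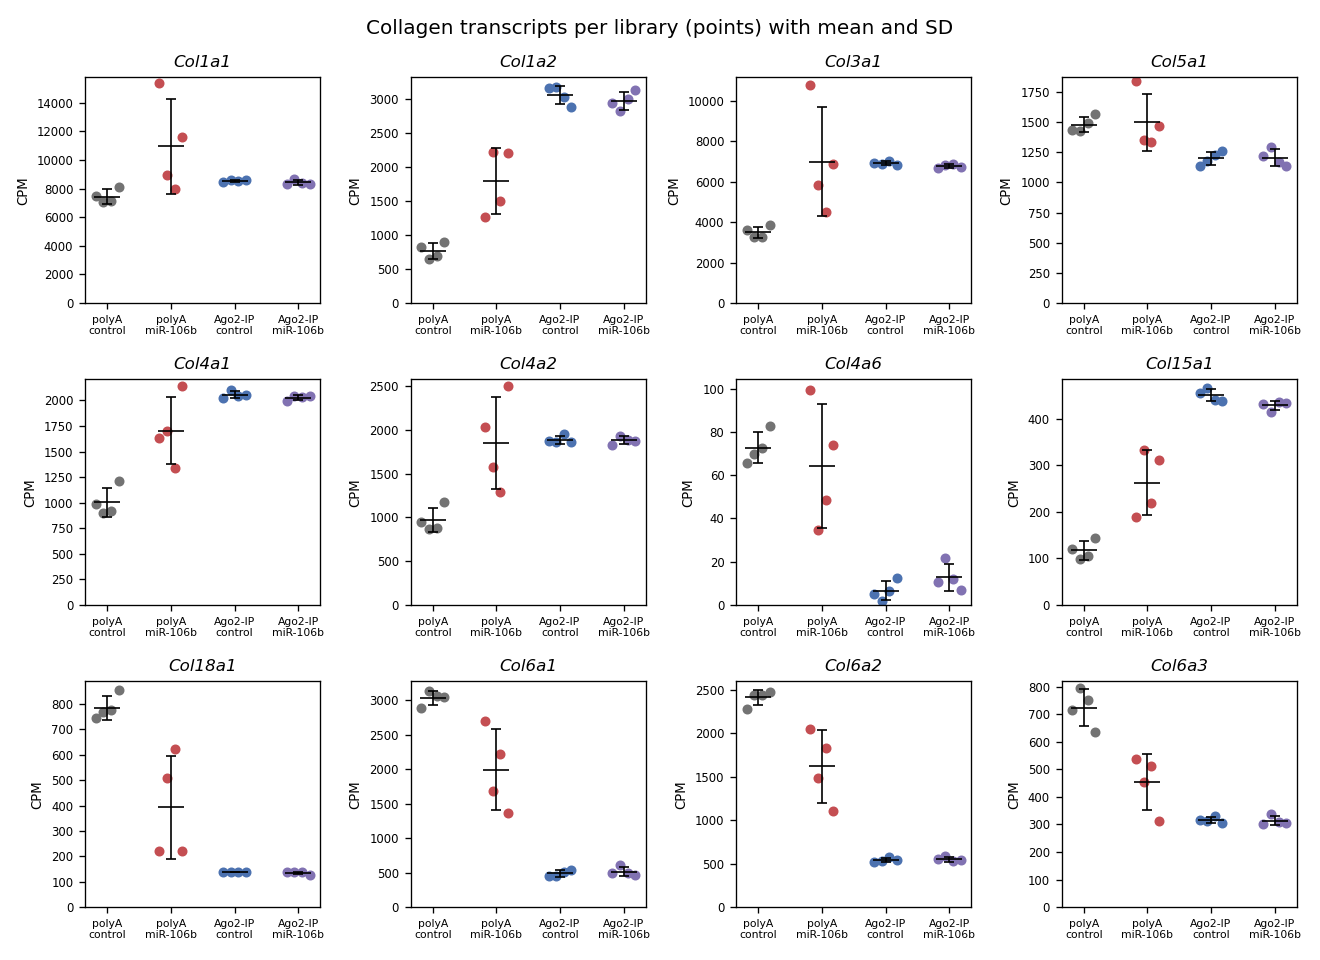
Levels (CPM, TMM scaling for each kind of RNA) of 12 collagens in each library (points), with the mean and SD of each group of 4. Col1a2 and Col15a1 were higher with miR-106b in polyA RNA, Col6a1 fell from 3038 ± 105 to 1992 ± 588 CPM, and the Ago2-IP groups overlapped except for Col15a1.

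Other fibrillar genes were less uniform. Col27a1 rose from 13.5 to 20.1 CPM in the controls to 25.3 to 40.4 CPM with miR-106b, by 0.99 ± 0.18 (edgeR adjusted p = 0.0013), with no overlap. Col24a1 was low, at 1.89, 1.99, 2.09 and 2.97 CPM in the controls and 1.79, 5.34, 4.68 and 8.14 CPM with miR-106b. Its first miR-106b library lay below every control and the other 3 above all of them. Its fold change of 1.11 ± 0.40 was called (edgeR adjusted p = 0.0397), but the adjusted p became 0.0688, 0.0774 and 0.0666 without replicates 1, 2 and 3 of polyA control, and 0.0897, 0.0611 and 0.145 without replicates 2, 3 and 4 of polyA miR-106b.

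The type V and XI chains, which set fibril diameter, were not called. Col5a1 had 1428 to 1564 CPM in the controls and 1334 to 1836 CPM with miR-106b (0.018 ± 0.14), and turned to -0.0080 with scaling to library size. Col5a2 was at 882, 923, 893 and 852 CPM and 1037, 609.5, 652 and 542 CPM (-0.32 ± 0.18), with its first miR-106b library above every control and the other 3 below every control. Without that library Col5a2 passed the threshold in edgeR (adjusted p = 0.00387), with a fold change of -0.48, as it did with the likelihood ratio test and robust observation weights together in edgeR (-0.46, adjusted p = 0.0123). Col5a3, at 255 to 279 CPM and 202 to 372 CPM, also passed without it, in the other direction (0.35, edgeR adjusted p = 0.0236).

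Col11a1, a chain best known from cartilage fibrils, was at 153, 146, 154 and 175 CPM in polyA control libraries and 473, 85.7, 113 and 204 CPM after miR-106b. The first miR-106b library stood far above the controls and the last a little above, with the other 2 below. The fold change of 0.48 ± 0.48, not called, turned to -0.17 without replicate 1 of polyA miR-106b. Col11a2 was at 6.07 to 14.4 CPM in the controls and 7.82 to 10.7 CPM with miR-106b (-0.19 ± 0.27). Across the fibrillar class, 5 of 10 tested genes rose with miR-106b in polyA RNA (beside 19.0% of all genes), and the other 5 were not called.

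Among the 6 type IV genes, 4 rose with miR-106b in polyA RNA (66.7%, beside 19.0% of all genes) and the other 2 were not called. Col4a1 was at 992, 898, 924 and 1209.5 CPM in the controls and 1632, 1704, 1344 and 2143 CPM with miR-106b, and Col4a2, its partner in the common basement membrane network, at 950.1, 869.7, 884 and 1174 CPM and 2037, 1576, 1293 and 2494 CPM. In both genes every miR-106b library lay above every control, and replicate 4 was the highest library of each group. Col4a1 rose by 0.76 ± 0.16 (edgeR adjusted p = 0.00268) and Col4a2 by 0.93 ± 0.19 (edgeR adjusted p = 0.00246). The pair lies head to head, with Col4a1 at chr8:11198423-11312826 on the minus strand and Col4a2 at chr8:11312805-11449287 on the plus strand (GRCm38), and their annotated ends share 22 bases.

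Col4a3 and Col4a4, chains of the glomerular filter, are also head to head (71 bases apart on chromosome 1) and were low. Col4a3 was at 2.53, 1.26, 2.99 and 2.97 CPM in the controls and 4.47, 5.87, 5.78 and 5.55 CPM with miR-106b, and Col4a4 at 6.15, 4.50, 5.54 and 5.59 CPM and 8.05, 13.6, 10.2 and 17.0 CPM. Neither gene's groups overlapped, and both rose, by 1.18 ± 0.31 (edgeR adjusted p = 0.00941) and 1.15 ± 0.25 (edgeR adjusted p = 0.00286). Col4a5 and Col4a6, the X-linked pair, were at 155 to 187 and 65.8 to 82.7 CPM in the controls. With miR-106b they spread to 123 to 228 and 34.4 to 99.4 CPM, around the control range, and neither was called (-0.028 ± 0.18 and -0.18 ± 0.26). The sign of the Col4a5 change turned with size factors from DESeq2 (0.032).

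The main type VI genes moved the other way. Col6a1 was at 2891, 3138, 3069.9 and 3053 CPM in the controls and 2699, 1689, 2217 and 1364 CPM with miR-106b. Col6a2, its neighbour on chromosome 10, was at 2282, 2445, 2442 and 2479 CPM and 2052, 1486, 1835 and 1099.9 CPM. In both, all miR-106b libraries lay below all controls, with replicate 1 closest and replicate 4 lowest. Col6a1 fell by 0.61 ± 0.19 (edgeR adjusted p = 0.0215) and Col6a2 fell by 0.58 ± 0.18 (edgeR adjusted p = 0.0199). The adjusted p of Col6a1 was 0.0852, 0.11 and 0.106 without replicates 1, 2 and 3 of polyA control, and 0.0611 without replicate 2 of polyA miR-106b. For Col6a2 it was 0.0844, 0.107 and 0.109 without replicates 1, 2 and 3 of polyA control, and 0.0519 without replicate 2 of polyA miR-106b.

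Col6a3, the third chain of the filament, was at 715, 796, 751 and 635 CPM in the controls and 537, 456, 511 and 312 CPM with miR-106b. Its groups did not overlap and it fell by 0.67 ± 0.16 (edgeR adjusted p = 0.00545, or 0.051 without replicate 2 of polyA control). Col6a6, a related low chain, rose from 2.09 to 4.04 CPM to 4.92 to 9.08 CPM, by 1.26 ± 0.28 (edgeR adjusted p = 0.00393). The class thus held 3 genes that fell and 1 that rose among 4 tested, where 21.5% of all genes fell and 19.0% rose.

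The multiplexins, basement membrane collagens whose ends release endostatin-like fragments, changed in opposite directions. Col15a1 was at 121, 99.6, 105 and 145 CPM in the controls and 189, 334, 218 and 311 CPM with miR-106b, and rose by 1.16 ± 0.18 without overlap (edgeR adjusted p = 0.000701). Col18a1 was at 745, 771, 776 and 854 CPM in the controls and 222, 508, 622 and 222 CPM with miR-106b. The miR-106b libraries all lay below the controls but split, with replicates 1 and 4 far lower than the others. Col18a1 fell by 1.0 ± 0.31 (edgeR adjusted p = 0.0269). That value was 0.0798, 0.0972, 0.0916 and 0.0566 without replicates 1, 2, 3 and 4 of polyA control, and 0.0849 and 0.0527 without replicates 1 and 4 of polyA miR-106b, and 0.182 with no filter on low counts.

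FACIT genes showed 1 rise among 7 tested (14.3%, near the 19.0% of all genes), in Col14a1, which binds the surface of type I fibrils. It was at 36.3, 27.1, 32.0 and 36.0 CPM in the controls and 44.0, 87.0, 62.0 and 90.7 CPM with miR-106b, all above the controls, and rose by 1.11 ± 0.20 (edgeR adjusted p = 0.00122). Col12a1 had 89.9 to 109 CPM and 59.5 to 116 CPM (-0.15 ± 0.19). Col16a1 had 298, 302, 312 and 316 CPM and 313, 217, 250.1 and 231 CPM (-0.28 ± 0.12). For Col16a1 the first miR-106b library lay among the controls and the other 3 below, and without it the fold change of -0.32 passed in edgeR (adjusted p = 0.014), as it did by the likelihood ratio test with robust weights (-0.32, adjusted p = 0.0341).

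Col8a1 and Col8a2, short-chain collagens of vessel walls and of Descemet's membrane, were not called. Col8a1 had 86.9 to 97.6 CPM in the controls and 84.6 to 120.5 CPM with miR-106b. Col8a2 had 3.47, 2.62, 2.24 and 2.97 CPM and 11.2, 4.27, 1.65 and 7.03 CPM, with 1 miR-106b library below every control and 3 above. Its fold change of 1.12 ± 0.43 missed the threshold (edgeR adjusted p = 0.0541), and passed without polyA miR-106b replicate 3 (edgeR adjusted p = 0.00524). Its adjusted p was also 0.0436 with DESeq2 size factors, 0.00337 with no filter on low counts, 0.0333 with the DESeq2 Wald test, 0.024 with the likelihood ratio test with robust weights and 0.012 with all 16 libraries in 1 fit. Col7a1, the chain of anchoring fibrils, had 11.8 to 12.9 CPM and 5.14 to 13.8 CPM (-0.41 ± 0.24), and passed as lower without polyA miR-106b replicate 3 (edgeR adjusted p = 0.0376, fold change -0.66).

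The 8 tested members under 5 CPM in every group included 3 calls, all of them higher (beside 19.0% of all genes, and 21.5% lower), which are named because their values were seen. Col23a1, a transmembrane collagen, was at 2.21, 0.733, 1.20 and 1.57 CPM in the controls and 5.14, 3.74, 2.75 and 7.03 CPM with miR-106b, and rose by 1.72 ± 0.40 (edgeR adjusted p = 0.00487). Col13a1, of the same class, was at 0, 1.36, 1.05 and 1.75 CPM and 3.13, 2.40, 3.03 and 3.33 CPM and rose by 1.48 ± 0.54 (edgeR adjusted p = 0.0429, or 0.0564 and 0.0748 without replicates 2 and 3 of polyA control, and 0.0582, 0.0678 and 0.0885 without replicates 2, 3 and 4 of polyA miR-106b). Col28a1 was at 0, 0.314, 0.299 and 0.349 CPM and 0.670, 1.87, 1.10 and 1.48 CPM, and rose by 2.24 ± 0.64 (edgeR adjusted p = 0.0143, or 0.0546 without replicate 2 of polyA miR-106b). No control value of Col28a1 lay above what a count of 0 allows there (0.317 to 0.527 CPM), and it passed the filter through other groups only. Its fold changes against polyA control are therefore not exact, and its call is 1 of the 15 higher ones. These 3 genes had 72 to 194 counts over all 16 libraries, and in each the groups did not overlap. Col9a2, Col9a3, Col20a1, Col22a1 and Col26a1 were not called.

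**Figure D2:**
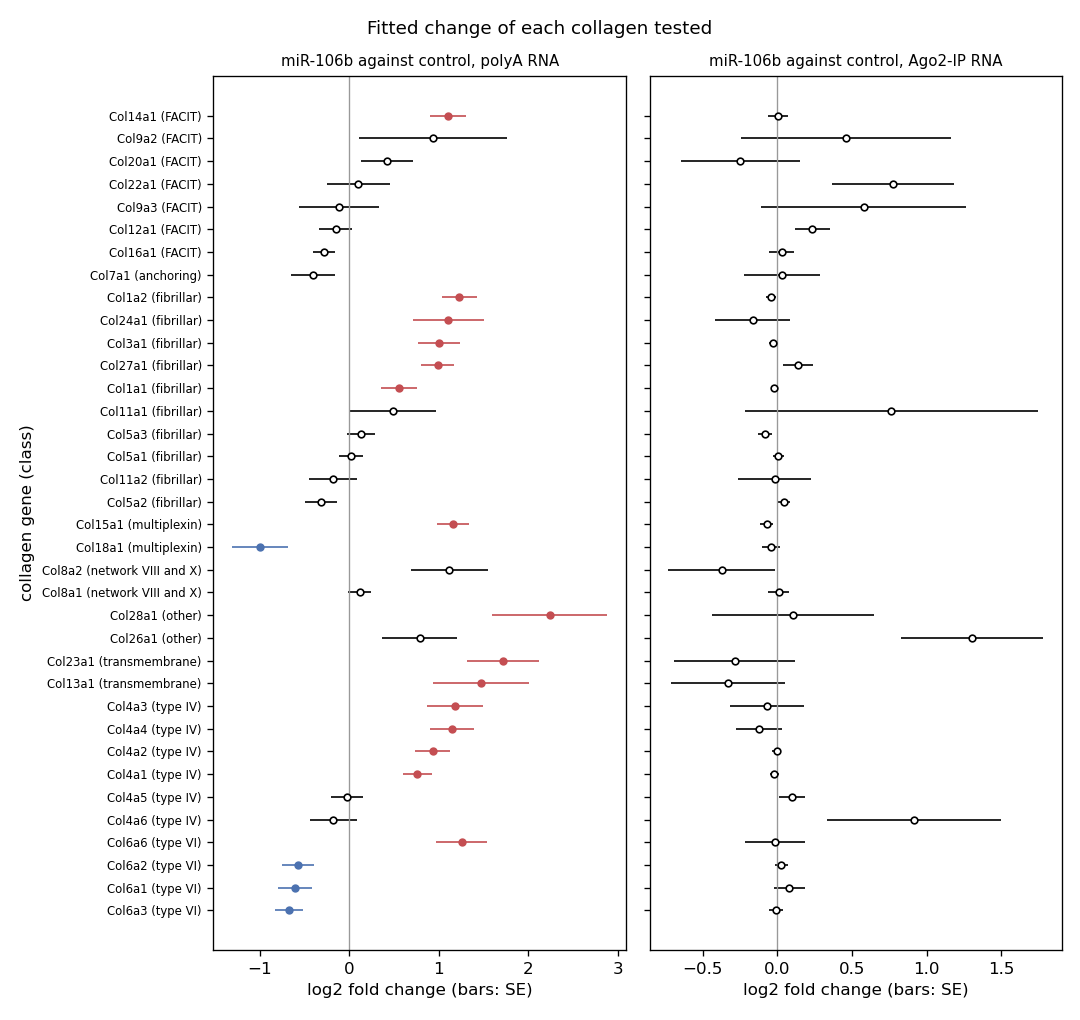
Fitted log2 fold change of miR-106b against control for the 36 collagens tested, by class, in polyA RNA (left) and Ago2-IP RNA (right); bars are SE. Filled points mark edgeR adjusted p under 0.05, red for higher (15) and blue for lower (4) genes, and open points were not called.

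The 15 collagens that rose in polyA RNA are set here beside the cell type lists. Their fold changes were 0.56 (Col1a1), 0.76 (Col4a1), 0.93 (Col4a2), 0.99 (Col27a1), 1.0 (Col3a1), 1.11 (Col14a1), 1.11 (Col24a1), 1.15 (Col4a4), 1.16 (Col15a1), 1.18 (Col4a3), 1.23 (Col1a2), 1.26 (Col6a6), 1.48 (Col13a1), 1.72 (Col23a1) and 2.24 (Col28a1). The list medians were 1.23 for cardiac muscle, 1.21 for fibroblast, 1.23 for endothelium, 1.21 for macrophage and leukocyte, 1.01 for mural and smooth muscle and -0.53 for kidney epithelium (2 genes tested). In the control transfection, the Ago2-IP to polyA log2 ratios of the same collagens, in the order given, were 0.48, 1.31, 1.24, 1.80, 1.26, 2.19, 2.20, 2.25, 2.22, 2.17, 2.28, 2.15, 2.15, 1.60 and 2.88. The list medians of these ratios were 2.27 for cardiac muscle, 2.28 for fibroblast, 2.25 for endothelium, 2.24 for macrophage and leukocyte, 1.84 for mural and smooth muscle and -4.44 for kidney epithelium. Both comparisons share the polyA control libraries, against which these collagens were picked as higher. That choice favours higher Ago2-IP ratios, so the second set of values is no separate evidence. The values of Col28a1 are not exact, as given above. The collagens that fell with miR-106b (Col6a1, Col6a2, Col6a3 and Col18a1) were lower in Ago2-IP RNA of the control transfection, with values given below. The part of the list genes' cells in these values was not tested.

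Ago2-bound RNA showed no collagen called between miR-106b and control. In edgeR 0 of 36 collagens passed, as did 0.0% of all genes, while 1 collagen and 827 of all genes had an unadjusted p under 0.05. DESeq2 called 0 collagens, with 2 higher and 0 lower among all genes. The likelihood ratio test with robust weights in edgeR also called 0 collagens, with 15 higher and 3 lower among all genes. The median over the collagens was -0.00090, beside 0.0012 over all 14893 genes tested.

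Abundant members were steady between Ago2-IP libraries. Col1a1 had 8478, 8598, 8532 and 8603 CPM with control and 8310.0, 8701, 8412 and 8323 CPM with miR-106b (-0.020 ± 0.022), and Col3a1 6948, 6895, 7024 and 6813 CPM and 6659, 6854, 6878 and 6711 CPM (-0.030 ± 0.023). Both pairs of groups overlapped. Col15a1 had 456, 467, 440.4 and 439 CPM and 433, 415, 435 and 434 CPM, with every miR-106b library below every control, and was not called (-0.070 ± 0.043, edgeR adjusted p = 0.899). No other collagen had groups apart, so that 1 of 36 lay lower throughout and 0 higher, beside 1.7% and 1.56% of all genes.

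Among members of at least 5 CPM, Col11a1 and Col4a6 varied most between the libraries of each Ago2-IP group. Col11a1 was at 3.98, 5.58, 40.0 and 67.5 CPM with control and 39.1, 112, 39.3 and 14.3 CPM with miR-106b, and Col4a6 at 5.12, 1.95, 6.72 and 12.7 CPM and 10.5, 21.6, 12.2 and 6.98 CPM. For both, the second control library was among the lowest and the second miR-106b library the highest. The fold changes, 0.77 ± 0.98 and 0.92 ± 0.58, were not called. The kidney epithelium list, also low in Ago2-IP RNA, summed to 1.43, 3.91, 4.33 and 9.96 CPM with control and 8.92, 17.1, 12.6 and 4.36 CPM with miR-106b, and its part in these values was not tested.

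Most genes differed between Ago2-IP and polyA RNA in the control transfection, and the collagens were called at a similar rate (28 of 36, or 77.8%, beside 73.3% of all genes). Of the 36, 18 were higher in Ago2-IP RNA (35.4% of all genes) and 10 lower (37.9% of all genes), with a median log2 ratio of 0.43 beside -0.063 over all genes. Scaling to library size alone moved the all-gene median to -0.35 and the share of higher genes among all calls from 48.3% to 37.6%. It left 17 collagens higher and 12 lower.

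Type I, III and most type IV chains were on the higher side. Col1a2 averaged 767 ± 117 CPM in polyA RNA and 3067 ± 133 CPM in Ago2-IP RNA of control cells, a log2 ratio of 2.28 ± 0.085 (edgeR adjusted p = 4.62e-16). Col3a1 was higher by 1.26 ± 0.063 and Col1a1 by 0.48 ± 0.059. Col4a1, Col4a2, Col4a3 and Col4a4 were higher by 1.31, 1.24, 2.17 and 2.25. Col27a1 (1.80), Col5a3 (0.82), Col6a6 (2.15) and Col15a1 (2.22) were also called higher, as were Col14a1, Col24a1 and the low members Col13a1, Col23a1 and Col28a1. The ratio of Col28a1 is not exact, because of its low polyA control values. Col8a1 (0.39) and Col8a2 (0.99) were called too, Col8a1 not with library size scaling (edgeR adjusted p = 0.212) and Col8a2 not without Ago2-IP control replicate 3 (edgeR adjusted p = 0.0652).

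Col6a1, Col6a2 and Col6a3 of type VI, and both X-linked type IV chains, were on the lower side. Col6a1 fell by 2.36 ± 0.069, from 3038 ± 105 CPM in polyA control to 488 ± 44.4 CPM in Ago2-IP control RNA (edgeR adjusted p = 2.44e-18). Col6a2 had -1.88 ± 0.063, Col6a3 -0.92 ± 0.070 and Col18a1 -2.23 ± 0.064. Col4a6 had the lowest ratio of the members, -3.11 ± 0.33, from 72.7 ± 7.25 CPM to 6.62 ± 4.49 CPM (edgeR adjusted p = 5.93e-05). Col4a5 (-0.90), Col5a2 (-0.79), Col12a1 (-1.32) and Col16a1 (-0.99) were lower as well. Col5a1 (-0.025) was not called but passed as lower with library size scaling, at -0.31. Col7a1 (-0.39) was not called either, but its adjusted p was 0.00258 with library size only, 0.0447 with no filter on low counts, 0.0412 with at least 10 counts in every library and 0.0347 with the likelihood ratio test with robust weights, and 0.0197 without replicate 1 of Ago2-IP control, with fold changes of -0.67 to -0.38. Col11a1 was called at -2.08 ± 0.67 (edgeR adjusted p = 0.0287), and its adjusted p was 0.0603, 0.0581, 0.0614 and 0.0549 without replicates 1, 2, 3 and 4 of polyA control, and 0.0566 without replicate 3 of Ago2-IP control, and 0.0523 with no filter on low counts.

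After miR-106b transfection fewer genes were called between the RNA kinds than after control, among all genes (38.5%) as among the collagens (17 of 36, or 47.2%). There 9 collagens were higher in Ago2-IP RNA (18.6% of all genes) and 8 lower (19.8% of all genes), with a median of 0.093 beside -0.037. Among the cell type lists, 24 of 24 cardiac muscle (median 0.89), 9 of 10 fibroblast (0.94) and 9 of 10 endothelial genes (0.88) were higher. Macrophage and leukocyte genes had 10 of 10 higher (0.93), and mural genes 5 of 10 higher and 2 lower (0.50). Of 2 kidney epithelium genes tested 1 was lower (median -3.14), and the part of these cell types was not tested. Library size scaling moved the all-gene median to -0.19, the share of higher genes among all calls from 48.5% to 34.0%, and the collagens to 5 higher and 9 lower. Without Ago2-IP miR-106b replicate 3, 5 were higher, and over all genes 2235 in place of 2776. Col1a2 was higher by 0.89 ± 0.18 (edgeR adjusted p = 0.00144), and Col6a1 lower at -1.79 ± 0.19 (edgeR adjusted p = 1.3e-05). Col3a1 and Col1a1, at 0.11 ± 0.22 and -0.22 ± 0.20, were not called, and Col3a1 turned to -0.029 with library size scaling.

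The change of the Ago2:polyA ratio with miR-106b was tested as an interaction over all 16 libraries. In edgeR 1 collagen had a higher ratio (7.62% of all genes) and 16 a lower one (19.7% of all genes), with a median of -0.47 beside -0.070 over all genes. The ratio uses the same libraries as the comparisons above. In the same test 24 of 24 cardiac muscle genes had a lower ratio (median -1.40), as had 10 of 10 endothelial genes (-1.43). So had 9 of 10 fibroblast (-1.39), 9 of 10 macrophage and leukocyte (-1.36) and 7 of 10 mural genes (-1.18). Of 2 kidney epithelium genes tested 0 were called (median 1.28), and the part of these cell types was not tested. Col1a2 had -1.42 ± 0.21 (edgeR adjusted p = 2.99e-05), Col15a1 -1.37 ± 0.20 and Col14a1 -1.25 ± 0.23. Col6a3 was the gene with a higher ratio, 0.52 ± 0.17 (edgeR adjusted p = 0.029), and its adjusted p was 0.0654 and 0.0565 without replicates 2 and 3 of polyA control, 0.0504 and 0.054 without replicates 2 and 4 of Ago2-IP control, and 0.0612 without replicate 2 of Ago2-IP miR-106b. The count of higher ratios was 0 in those fits and 4 without replicate 1 or replicate 3 of polyA miR-106b, and 4 with DESeq2 and with the likelihood ratio test with robust weights. Over all genes the higher ratios, 1135 with all libraries, were 802 to 1070 in the fits with 0 collagens and 1536, 1537, 1408 and 1818 in those with 4. Col6a1 (0.54 ± 0.21, edgeR adjusted p = 0.0583) and Col6a2 (0.45 ± 0.19, edgeR adjusted p = 0.0734) lay near the threshold. For Col6a1 the adjusted p was 0.0463 with DESeq2 size factors, 0.0179 with library size only, 1.76e-05 with no filter on low counts, 0.0355 with at least 10 counts in every library, 0.0384 with the DESeq2 Wald test and 0.0214 with the likelihood ratio test with robust weights, and 0.00119 and 0.0414 without replicates 1 and 3 of polyA miR-106b. For Col6a2 it was 0.0183 with library size only, 0.000213 with no filter on low counts, 0.0417 with at least 10 counts in every library and 0.0464 with the DESeq2 Wald test, and 0.0043 and 0.0388 without replicates 1 and 3 of polyA miR-106b. Library size scaling gave an all-gene median of 0.098, 46.3% higher genes among all calls against 27.9%, and 3 higher and 15 lower collagens.

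Some calls of lower ratio were lost when a library was left out or a setting changed. The adjusted p of Col24a1 (-1.41 ± 0.45, edgeR adjusted p = 0.0222) was then 0.062 and 0.0761 without replicates 2 and 4 of polyA miR-106b, and 0.0523 without replicate 4 of Ago2-IP control. For Col8a2 (-1.63 ± 0.58, edgeR adjusted p = 0.0377) it was 0.0662 and 0.0702 without replicates 2 and 3 of polyA control, 0.133 and 0.0637 without replicates 1 and 4 of polyA miR-106b, 0.0613 and 0.108 without replicates 1 and 3 of Ago2-IP control, and 0.0723, 0.0589, 0.0538 and 0.0515 without replicates 1, 2, 3 and 4 of Ago2-IP miR-106b, and 0.0582 with library size only. The low genes Col13a1 (-1.95 ± 0.64, edgeR adjusted p = 0.0261) and Col28a1 (-2.25 ± 0.73, edgeR adjusted p = 0.0244) had 0.0549 and 0.0523 without replicates 1 and 3 of Ago2-IP control for the former, and 0.083 without replicate 2 of polyA miR-106b and 0.141 with no filter on low counts for the latter. Ratios not called otherwise passed for Col5a2 (0.22) and Col5a3 (-0.35) without replicate 1 of polyA miR-106b, at 0.46 and -0.49 (edgeR adjusted p = 0.00252 and 0.0039). That of Col18a1 (0.81) had an adjusted p of 0.0115 without replicate 3 of polyA miR-106b, and 0.0405 with the DESeq2 Wald test and 0.0101 with the likelihood ratio test with robust weights, and that of Col4a6 (0.94) 0.0454 with the likelihood ratio test with robust weights.

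The same held between the RNA kinds after miR-106b. Col4a1 (0.41 ± 0.15, edgeR adjusted p = 0.0417) had 0.0505 and 0.118 without replicates 2 and 3 of polyA miR-106b, and 0.0827, 0.0881, 0.0975 and 0.0989 without replicates 1, 2, 3 and 4 of Ago2-IP miR-106b, and 0.132 with library size only. Col4a3 (0.79 ± 0.28, edgeR adjusted p = 0.0353) had 0.0777, 0.0535 and 0.0528 without replicates 1, 3 and 4 of polyA miR-106b, and 0.126, 0.0802 and 0.058 without replicates 1, 2 and 3 of Ago2-IP miR-106b, and 0.0809 with library size only and 0.0772 with no filter on low counts. Type V chains went the same way, Col5a2 (-0.54 ± 0.17) with 0.0658, 0.0606 and 0.0537 without replicates 1, 3 and 4 of Ago2-IP miR-106b and Col5a3 (0.50 ± 0.16) with 0.0637 and 0.0583 without replicates 3 and 4 of Ago2-IP miR-106b, and 0.0801 with library size only. Col6a6 (0.75 ± 0.24) had 0.0652 without replicate 1 of polyA miR-106b, and 0.0689 without replicate 3 of Ago2-IP miR-106b, and 0.0582 with library size only and 0.0512 with no filter on low counts. Col18a1 (-1.39 ± 0.36) had 0.0616 without replicate 2 of polyA miR-106b, and 0.0633 with no filter on low counts. The lower side gained Col6a3 (-0.37 ± 0.15), with 0.00305 without replicate 4 of polyA miR-106b, and 0.0145 with library size only, 0.0163 with no filter on low counts, 0.0165 with the likelihood ratio test with robust weights and 0.0162 with all 16 libraries in 1 fit, and Col11a1 (-1.95 ± 0.81), with 0.0346 with the DESeq2 Wald test and 7.06e-05 with the likelihood ratio test with robust weights. The higher side gained Col3a1, with 0.0482 without replicate 1 of polyA miR-106b, and Col24a1, with 0.0304 without replicate 4 of polyA miR-106b, and 0.0429 with all 16 libraries in 1 fit. All are adjusted p from edgeR, except where DESeq2 is named as the test.

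Chains that assemble in one molecule were compared within each library, which needs no scaling. The Col1a1 to Col1a2 count ratio was 9.04, 10.7, 10.4 and 9.01 in polyA control libraries and 12.1, 4.00, 5.30 and 5.25 after miR-106b. The first miR-106b library was above all controls and the other 3 below all of them. The mean log2 ratio differed by -0.69 (two-sided exact permutation p = 0.143, adjusted 0.56 over 14 chain ratio tests). The smallest p that this test can give is 0.0286, which for a single ratio becomes 0.40 after adjustment, so that no ratio could pass on its own. In Ago2-IP RNA the ratio was 2.66 to 3.08 over all 8 libraries. Counts are not adjusted for length here, so that the ratio is no stoichiometry.

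The Col4a1 to Col4a2 ratio was 1.04, 1.03, 1.05 and 1.03 in polyA control libraries and 0.801, 1.08, 1.04 and 0.859 after miR-106b, and 1.05 to 1.13 in Ago2-IP RNA. Col6a1 to Col6a2 was 1.14 to 1.32 in polyA RNA and 0.850 to 1.02 in Ago2-IP RNA. The lowest exact permutation p of the 14 ratios was 0.0571 (adjusted 0.56) for Col5a1 to Col5a2 in polyA RNA, at 1.62, 1.55, 1.67 and 1.83 in the controls and 1.77, 2.21, 2.05 and 2.71 with miR-106b.

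**Figure D3:**
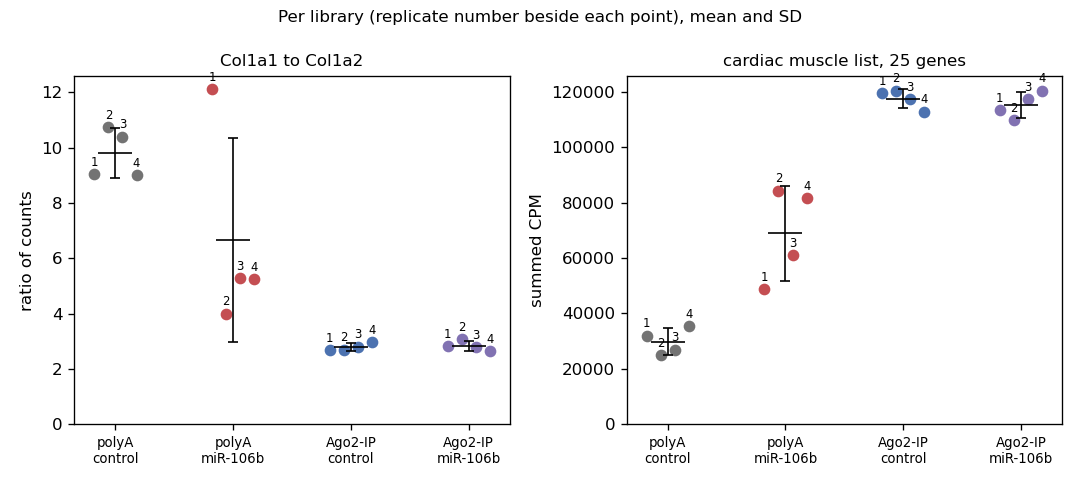
Left, ratio of Col1a1 to Col1a2 counts in each library, numbered by replicate; right, summed CPM (library size scaling) of the 25 cardiac muscle genes; lines give mean and SD of 4 libraries. The first polyA miR-106b library had the highest chain ratio, 12.1, and the lowest cardiac sum of its group, 48729 CPM. The polyA control libraries had lower cardiac sums, 24964 to 35496 CPM, with ratios of 9.01 to 10.7. A relation of the ratio to the cardiac sum was not tested.

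Genes that make, bind or surround collagen were read from 4 lists, beside all genes tested, of which 19.0% rose and 21.5% fell with miR-106b in polyA RNA. Of the genes for collagen synthesis and processing, 5 of 30 tested rose (16.7%) and 7 fell (23.3%), near the shares of all genes (median 0.0082). Pcolce, an enhancer of procollagen C-proteinase and the most abundant of them, had 1964 ± 152 and 2069.8 ± 1019.9 CPM (0.076 ± 0.27). Loxl4, a lysyl oxidase that crosslinks collagen, went from 87.2 ± 7.91 to 33.4 ± 18.7 CPM (-1.38 ± 0.32, edgeR adjusted p = 0.00704). Pcolce2 had -0.92 ± 0.15 (edgeR adjusted p = 0.000738), and Adamts2, which removes the N-propeptide of procollagen, 0.81 ± 0.16 (edgeR adjusted p = 0.00188).

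Of the collagen receptors, 3 of 8 tested rose (37.5%) and 1 fell (12.5%), beside 19.0% and 21.5% of all genes (median 0.45). Itgb1, the beta subunit shared by collagen-binding integrins, fell from 698 ± 39.4 to 416 ± 60.6 CPM (-0.75 ± 0.13, edgeR adjusted p = 0.000883). The integrin subunit Itga11, the tyrosine kinase receptor Ddr2 and the integrin subunit Itga1 rose by 1.09 ± 0.25, 1.03 ± 0.22 and 0.87 ± 0.19. Of the basement membrane partners of type IV collagen, 5 of 13 tested rose (38.5%) and 2 fell (15.4%), beside 19.0% and 21.5% of all genes (median 0.49). The laminin genes Lama2, Lama5 and Lama4 rose by 1.27 ± 0.21, 1.18 ± 0.18 and 1.18 ± 0.13, and perlecan (Hspg2) had 2662 ± 206 and 2967 ± 418 CPM (0.16 ± 0.14).

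Of the fibril partners, 9 of 13 tested rose (69.2%) and 1 fell (7.69%), beside 19.0% and 21.5% of all genes (median 1.19). Fibronectin (Fn1), on which collagen fibrils are laid down, fell from 10596 ± 538 to 4789 ± 1461 CPM (-1.15 ± 0.21, edgeR adjusted p = 0.00128). Periostin (Postn), Prelp and decorin (Dcn) rose by 1.42 ± 0.34, 1.33 ± 0.19 and 1.24 ± 0.19. Dcn and Lum are in the fibroblast list too. In Ago2-IP RNA the medians of the 4 lists were -0.023, 0.086, -0.010 and -0.024 in the order given.

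The transfected microRNA pairs with mRNAs through its seed, bases 2 to 8, shown in capitals in the mature sequence from RefSeq (GRCm38.p6, chr5:138165787-138165807, minus strand).
mmu-miR-106b-5p: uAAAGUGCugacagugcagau

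Matches to positions 2 to 8 of the microRNA (GCACTTT, with or without a following A) were found in the longest annotated 3′UTR of 4 of 36 collagens tested (11.1%), beside 1954 of 13222 genes tested with a 3′UTR (14.8%). They were Col26a1 and 3 type IV genes, whose sites are shown because those genes rose in polyA RNA. With the match CACTTTA counted as well, 5 of 36 collagens (13.9%) had a site, beside 2941 of 13222 genes (22.2%). The gene added was Col5a1, which was not called in polyA RNA. The site of Col4a2 lay at chr8:11448984-11448990, that of Col4a3 at chr1:82719692-82719699 and those of Col4a4 at chr1:82452601-82452608 and chr1:82451549-82451556 on the minus strand (GRCm38), with the match in capitals. A match is a description and not a measured binding site. In Ago2-IP RNA the fold changes of Col4a2, Col4a3 and Col4a4 with miR-106b were -0.0050 ± 0.032, -0.070 ± 0.25 and -0.12 ± 0.16. Col26a1, a low member, was at 0.854, 1.12, 2.42 and 1.53 CPM with control and 1.94, 3.50, 6.77 and 2.62 CPM with miR-106b there (1.30 ± 0.48). It was not called (edgeR adjusted p = 0.7) and was the 1 collagen with an unadjusted p under 0.05.
Col4a2: aggagatgataGCACTTTtttctatcaaa
Col4a3: ttactaaatgtGCACTTTAtccccactcct
Col4a4 first site: ttttaagccagGCACTTTAaataattgtga
Col4a4 second site: cacttttcagtGCACTTTAgaataattgaa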

How the data were processed

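The deposited files held raw counts per gene, which the authors made by aligning single-end reads to GRCm38 with TopHat2 (version 2.0.10 in the submitters' processing notes) on Bowtie2 and counting with HTSeq. The notes also name DESeq and edgeR. The libraries were not strand-specific. Total counts ran from 2579086 to 9459585 per library. The 16 libraries were grouped by their labels, 4 per group.

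Genes were kept at 1 CPM or more in at least 3 of 4 libraries of any group, scaled by TMM and tested with the quasi-likelihood F test of edgeR 4.0.16 (limma 3.58.1, R 4.3.3, prior count 0.125), with Benjamini-Hochberg adjustment over all genes and a threshold of 0.05. Each comparison of groups was scaled and fitted on its own 8 libraries, and the interaction on all 16, so that a log2 ratio between RNA kinds can differ from the ratio of the levels printed. Chain ratios (0.5 added to each count) were tested by two-sided exact permutation over 70 relabellings. Alternatives were DESeq2 1.42.0, its size factors, library size only, no filter or at least 10 counts in every library, a likelihood ratio test with robust observation weights (both changed at once), a replicate block, all libraries scaled and fitted together and each library left out. The fits were tested on simulated data, with 100 genes changed 2-fold in each comparison. Of these, 70 were recovered for polyA RNA and 66 for Ago2-IP RNA. Between the RNA kinds 73 were recovered after control and 62 after miR-106b, and for the ratio 43. With 100 genes changed 3-fold, 91, 85, 91, 69 and 72 were recovered in the same order. Unchanged genes called were 3 to 12 per comparison. Tables used Python 3.11.15, numpy 2.4.6 and pandas 2.3.3, and figures matplotlib 3.10.9.

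Exon lengths came from GENCODE M21, which held all 44 members, and at most 5.65% of the exon bases of a named member lay in another gene, whose reads cannot be told apart without strand. The microRNA came from RefSeq. Members named were those with a mean of at least 5 CPM in a group, and from each partner list the most abundant gene in polyA RNA and the 3 called genes with the largest change at 5 CPM or more. Col13a1, Col23a1 and Col28a1 were named after their values were seen. Members and lists were chosen with earlier results of these data known. Promoter sequences and proteins were not used here. One gene of a marker list is not reported on its own here.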

Additional observations from a re-analysis of the deposited data

Results flagged for a closer look

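In 7 of 124 groups of 4 libraries looked at for the collagens named, 1 library lay far from the others relative to the range of its group, which chance gives in about 1 of 20 groups. Col18a1 was lowest in replicate 4 of Ago2-IP miR-106b, at 126 CPM against 136 to 137 CPM in the other 3. Col11a2 was highest in replicate 4 of polyA miR-106b, at 10.7 CPM against 7.82 to 8.28 CPM in the other 3. Col15a1 was lowest in replicate 2 of Ago2-IP miR-106b, at 415 CPM against 433 to 435 CPM in the other 3. Col4a2 was highest in replicate 3 of Ago2-IP control, at 1951 CPM against 1859 to 1870.4 CPM in the other 3. Col16a1 was highest in replicate 2 of Ago2-IP miR-106b, at 156 CPM against 117 to 124 CPM in the other 3. Col8a2 was lowest in replicate 1 of Ago2-IP miR-106b, at 2.71 CPM against 3.78 to 3.87 CPM in the other 3. Col28a1 was lowest in replicate 1 of polyA control, at 0 CPM against 0.299 to 0.349 CPM in the other 3. None of these values lay above what a count of 0 allows there (0.317 to 0.527 CPM), so this flag cannot be told from counting noise.

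The effect of miR-106b differed between the kinds of RNA for 17 collagens in the interaction test of edgeR (adjusted p under 0.05 over all genes), 16 of 36 with a lower ratio and 1 with a higher one, beside 19.7% and 7.62% of all genes. The effect in Ago2-IP RNA minus that in polyA RNA, on the log2 scale, was negative for Col28a1 (-2.25), Col23a1 (-2.14), Col13a1 (-1.95), Col8a2 (-1.63), Col1a2 (-1.42), Col6a6 (-1.42), Col4a4 (-1.41), Col24a1 (-1.41), Col4a3 (-1.39), Col15a1 (-1.37), Col14a1 (-1.25), Col3a1 (-1.18), Col4a2 (-1.08), Col27a1 (-0.99), Col4a1 (-0.93) and Col1a1 (-0.72). It was positive for Col6a3 (0.52). These are the calls of the ratio given above, and their values use all 16 libraries. The value of Col28a1 is not exact. None of its polyA control values lay above what a count of 0 allows, and it passed the filter through other groups only. Cell type lists had medians of -1.40 (cardiac muscle, 24 of 24 genes called lower), -1.43 (endothelium, 10 of 10) and -1.39 (fibroblast, 9 of 10). For macrophage and leukocyte genes the median was -1.36 (9 of 10), for mural genes -1.18 (7 of 10) and for kidney epithelium 1.28 (0 of 2 called). The part of these cell types was not tested.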

How the results depend on the processing

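Leaving out a library left the gene values on the same side of the threshold with the same sign in 1326 of the values, against 79 that lost a call, 16 that gained one and 67 that changed sign. The other settings kept 1105, with 18 lost, 32 gained and 28 of changed sign. No fold change whose sign turned was called with all libraries in the setting reported above. The cause was not tested. Low members limit the precision, since a count of 0 allows up to 1.16 CPM in the shallowest library.

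The count of lower collagens in polyA RNA, 4, ran from 0 to 5 with a library left out. The count of higher collagens between the RNA kinds after miR-106b, 9, ran from 5 to 9, and was 5 with library size only (over all genes 2070, against 2776). The count of higher ratios, 1, ran from 0 to 4. It was 2 with DESeq2 size factors, 3 with library size only, 3 with no filter, 3 with at least 10 counts in every library, 4 with the DESeq2 Wald test and 4 with the likelihood ratio test and robust weights. Over all genes these settings gave 1331, 1991, 1732, 1289, 1408 and 1818 higher ratios in the same order, against 1135. Genes tested were 14897, but 31502 with no filter and 10149 with at least 10 counts in every library. Over all genes, with a library left out, the lower calls in polyA RNA ran from 1636 to 3292, the higher calls between the RNA kinds after miR-106b from 2235 to 2806 and the higher ratios from 802 to 1537. With TMM over all 16 libraries the summed collagen level went from 24399.9 to 21549 CPM in polyA control, from 27061 to 29558 CPM in Ago2-IP control and from 26730.0 to 28771 CPM in Ago2-IP miR-106b libraries.

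Fold changes (log2) are given here with all libraries and, in parentheses, as the range with a library left out. For miR-106b against control in polyA RNA, signs turned with a library left out for Col5a3 0.13 (-0.015 to 0.35), Col11a2 -0.19 (-0.29 to 0.13), Col5a1 0.018 (-0.017 to 0.11), Col11a1 0.48 (-0.17 to 0.75), Col4a6 -0.18 (-0.42 to 0.032), Col4a5 -0.028 (-0.14 to 0.098) and Col12a1 -0.15 (-0.27 to 0.0045). They turned with library size only for Col5a1 -0.0080, the likelihood ratio test with robust weights for Col5a1 -0.0028, DESeq2 size factors for Col4a5 0.032, the DESeq2 Wald test for Col4a5 0.031, and with all 16 libraries in 1 fit for Col4a5 0.098. For the same comparison in Ago2-IP RNA, signs turned with a library left out for Col6a1 0.080 (-0.0066 to 0.13), Col6a2 0.028 (-0.0072 to 0.058), Col14a1 0.0032 (-0.049 to 0.058), Col11a2 -0.017 (-0.11 to 0.11), Col7a1 0.030 (-0.11 to 0.18), Col5a1 0.0069 (-0.030 to 0.034), Col4a5 0.097 (-0.0067 to 0.20), Col4a2 -0.0050 (-0.019 to 0.012), Col16a1 0.029 (-0.076 to 0.076), Col6a6 -0.017 (-0.074 to 0.031), Col6a3 -0.0081 (-0.045 to 0.014), Col8a1 0.0097 (-0.038 to 0.045) and Col4a3 -0.070 (-0.24 to 0.093). They turned with no filter for Col14a1 -0.012, Col5a1 -0.0095 and Col8a1 -0.0056, all 16 libraries in 1 fit for Col14a1 -0.017, Col5a1 -0.015 and Col8a1 -0.011, at least 10 counts in every library for Col4a2 0.0061 and Col6a3 0.0032, and with the likelihood ratio test with robust weights for Col16a1 -0.013. Between the RNA kinds after control transfection, signs turned with a library left out for Col11a2 0.035 (-0.18 to 0.26) and Col5a1 -0.025 (-0.054 to 0.0010). They turned with library size only for Col11a2 -0.25, no filter for Col11a2 -0.052, and with all 16 libraries in 1 fit for Col5a1 0.0039. Between the RNA kinds after miR-106b, signs turned with a library left out for Col11a2 0.075 (-0.013 to 0.19), Col7a1 -0.070 (-0.29 to 0.18) and Col3a1 0.11 (-0.055 to 0.40). They turned with library size only for Col11a2 -0.071 and Col3a1 -0.029. For the change of the ratio, signs turned with a library left out for Col11a2 0.023 (-0.21 to 0.21), Col11a1 0.13 (-0.61 to 0.97) and Col4a5 -0.023 (-0.14 to 0.17). They turned with the likelihood ratio test with robust weights for Col11a2 -0.021 and Col4a5 0.013, library size only for Col5a1 0.013 and Col4a5 0.15, DESeq2 size factors for Col4a5 0.029, no filter for Col4a5 0.13, at least 10 counts in every library for Col4a5 0.026, the DESeq2 Wald test for Col4a5 0.030, and with a replicate block for Col4a5 0.011. Chain ratios (log2 difference of miR-106b and control) that turned with a library left out were Col1a1 to Col1a2 in Ago2-IP RNA 0.022 (-0.018 to 0.054), Col4a1 to Col4a2 in Ago2-IP RNA -0.016 (-0.035 to 0.0012), Col8a1 to Col8a2 in Ago2-IP RNA 0.29 (-0.00099 to 0.54) and Col11a1 to Col11a2 in polyA RNA 0.27 (-0.25 to 0.60).

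Replicate numbers gave no pairing of libraries between groups. Correlations of same-numbered libraries' deviations were -0.42 to 0.26, and 1, 0, 2 and 0 of 4 libraries in the 4 pairs of groups matched their own number best. With the number as a block, 13 collagens were higher and 4 lower in polyA RNA, 0 and 0 in Ago2-IP RNA, 18 and 9 between the kinds after control, 8 and 7 after miR-106b, and 1 and 15 for the ratio. Over all genes the blocked fits gave 2576 higher and 2935 lower calls in polyA RNA, and 0 and 1 in Ago2-IP RNA. Between the kinds the calls were 5135 and 5513 after control and 2600 and 2726 after miR-106b, with 1113 and 2784 for the ratio. The block moved the adjusted p of Col1a1 in polyA RNA to 0.0544 and of Col13a1 to 0.0527 (edgeR), with 0.0706 for Col11a1 between the kinds after control, 0.0693 for Col4a6 and 0.055 for Col4a3 after miR-106b, and 0.06 for the ratio of Col8a2. It turned the ratio of Col4a5 to 0.011.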
